A study of Mus musculus with 8 samples.

Results

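Broad Ezh2 domains outside the Hox clusters were described across 5 ChIP-seq peak lists from mouse embryonic stem cells. The domains were chosen by the width of their peaks in 1 wild-type Ezh2 library, called library 1 in the labels. A domain is a library 1 peak on chromosomes 1 to 19 whose end minus start is at least 4000 bp and which does not overlap the windows of the Hoxa, Hoxb, Hoxc and Hoxd clusters. Of the 11766 peaks of library 1, 530 were that wide; 26 of these lay in the Hox windows and 4 on chromosome X, which left 500 domains. Width and score in library 1 therefore describe the choice and are not findings. What the other 4 lists hold inside the same intervals was not used to choose them.

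The lists, named by what was precipitated and in which cells, were Ezh2 in TT2 cells without G9a or its partner GLP (G9a-/-GLP-/-, here the knockout, 1 library, numbered 0), Ezh2 in wild-type TT2 cells (2 libraries, numbered 0 and 1), G9a in G9a-/-GLP-/- cells given back wild-type G9a (the rescue, 1 library) and G9a in wild-type TT2 cells (1 library). TT2 is a mouse embryonic stem cell line from a cross of C57BL/6 and CBA, kept with serum and LIF. By its label the rescue put back G9a alone, so those cells still lacked GLP. The knockout library carries the genotype in its title and description, while its source name gives only the line. All G9a chromatin was fixed with a second crosslinker, DSG, before formaldehyde, and Ezh2 chromatin was not, so the G9a and Ezh2 lists also differ in fixation. With 1 library per group outside wild-type Ezh2, no test between conditions can be made, and all values below are descriptions of these libraries. Whether both wild-type Ezh2 libraries are from separate cultures is not given in the labels. The lists hold no level of G9a or GLP, so the knockout could not be checked in them.

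Ezh2 carries the enzymatic activity of Polycomb repressive complex 2 (PRC2), the methyltransferase for lysine 27 of histone H3. In embryonic stem cells PRC2 is known to sit mainly at CpG-rich promoters of developmental regulators that are silent in these cells, and its widest domains are typically found over genes of transcription factors, of which the Hox clusters are the best-known case. G9a (Ehmt2) and GLP (Ehmt1) form a heteromeric enzyme that places mono- and dimethylation on lysine 9 of histone H3. No annotation of the mm9 build was used here, so the domains are named by their mm9 positions and no gene was assigned to them.

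The lists held 6198 peaks (knockout Ezh2), 5425 and 11766 peaks (wild-type Ezh2 libraries 0 and 1), 83721 peaks (rescue G9a) and 67318 peaks (wild-type G9a). Library 1 was the list with the widest Ezh2 peaks, with a median of 720 bp, against 368 bp in the knockout and 467 bp in library 0. The depth of each library is unknown, because the files give peaks and scores and no read counts. The lowest scores, which show how permissive each list is, were 43.03 in knockout Ezh2 and 43.02 in library 0, which are nearly the same value. They were 30 in library 1 and 20 in both G9a lists. A score is the authors' own value from the peak caller MACS, −log10 of a peak's p multiplied by 10, and differs in meaning between libraries of different depth. A score of 100 and a common lowest score were also applied across lists, as thresholds that need not be equally strict in each.

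The 500 domains had a median width of 5884 bp, with quartiles of 4605.5 and 8315.25 bp and a range of 4001 to 23320 bp. There were 79 domains of 10 kb or wider, 12 of 15 kb or wider and 2 of 20 kb or wider. Together they spanned 3.48 Mb. They made up 4.25% of the library 1 peaks and 23.2% of the length those peaks cover. In library 1, 60.0% of them had a score of 3100 or more (290 at exactly 3100 and 10 above it), against 23 of the 10997 narrower peaks outside the Hox windows, so the scores of most domains cannot be ranked among themselves. Domains often lay side by side. In all, 175 of the 500 had another domain within 10 kb, in 80 neighbourhoods of up to 6 domains, and such neighbours are not independent of each other.

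The narrowest domain, chr15:100874907-100878907, was 4001 bp wide, with 1409 bp under knockout Ezh2 peaks and 1647 bp under library 0 peaks. The widest peak left out, chr7:150628933-150632929, was 3997 bp wide, with 1508 bp under knockout peaks and 1658 bp under library 0 peaks. Next inside were widths of 4002, 4004, 4005 and 4006 bp, and next outside 3990, 3990, 3987 and 3984 bp.

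Nearly all of these domains held called Ezh2 in the knockout library, over less of their length than in wild-type library 0. A knockout Ezh2 peak lay in 479 of the 500 domains (95.8%; exact binomial 95% interval 93.7 to 97.4), and a library 0 peak in 494 (98.8%; 97.4 to 99.6). Among all 11497 library 1 peaks of the same chromosomes outside the Hox windows, 18.9% held a knockout peak and 22.2% a library 0 peak. Both lists were present in 474 domains, the knockout alone in 5, library 0 alone in 20 and neither in 1. A wide interval has more room for a peak than a narrow one, so the covered length was read beside these counts. The intervals cover the counting of domains only, treat neighbours as independent and say nothing of variation between cultures.

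Knockout peaks covered 41.2% of the summed domain length (1434 kb) and library 0 peaks 54.6% (1903 kb). In the middle domain of each ranking the covered share was 39.6% for the knockout (quartiles 23.9 and 54.4%) and 53.6% for library 0 (quartiles 40.6 and 65.7%). Among the 474 domains with both lists, the knockout covered less than library 0 in 381 (80.4%; exact binomial 95% interval 76.5 to 83.9) and more in 93. Over all library 1 peaks outside the Hox windows that hold both lists, the knockout covered less in 71.1%. The median ratio of knockout to library 0 covered length was 0.779, with quartiles of 0.577 and 0.962 and a range of 0.0882 to 3.05. Of these domains, 78 had a ratio below 0.5 and 14 a ratio of 1.5 or more. Summed over all 500 domains the ratio was 0.754, against 0.673 over the narrower library 1 peaks, although the median over the 1129 narrower peaks with both lists was 0.800, slightly above that of the domains. The summed ratio was 0.914 over everything these lists cover outside the domains. The domains were chosen in a wild-type Ezh2 library, a choice that may favour library 0 over the knockout inside them. How far the lower knockout coverage follows from this choice was not tested, and no domains were built from knockout peaks. The wild-type libraries also differed from each other: library 1 covers the domains entirely, by their choice, and library 0 covered 54.6% of them. That gap is set by the choice of domains and measures no spread between wild-type libraries, so the difference from the knockout has no replicate error to be read against. Over their whole lists the knockout had a median peak width of 368 bp and library 0 of 467 bp, and the part of this in the lower knockout coverage was not tested.

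**Figure D1:**
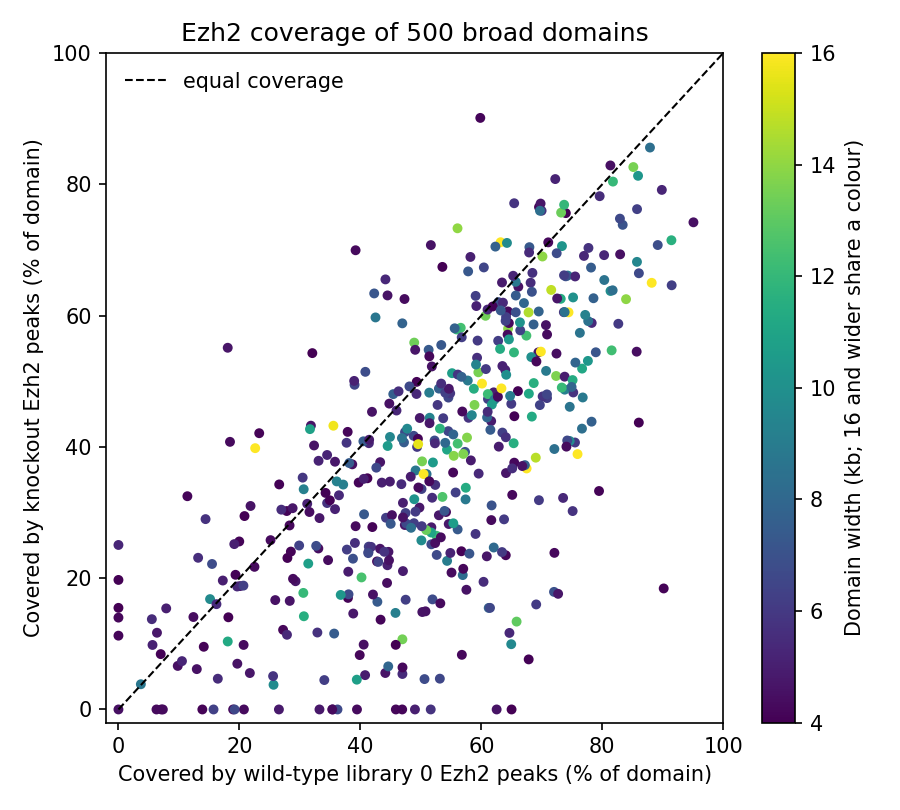
Each point is 1 of the 500 domains, placed by the share of its length under wild-type library 0 Ezh2 peaks (horizontal axis, %) and under knockout Ezh2 peaks (vertical axis, %), coloured by domain width; the dashed line marks equal coverage. Of the 474 domains with both lists 381 lie below the line and 93 above it, and 21 domains sit at 0 on the vertical axis.

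The number of peaks in the domains was nearly the same in both lists, and the knockout peaks were shorter. Knockout Ezh2 had 1839 peaks in the domains and library 0 had 1860, with a median of 3 per domain in each and at most 15 in the knockout and 12 in library 0. Among the 474 domains with both lists, the knockout had more peaks in 195, fewer in 173 and the same number in 106. The median width of the peaks that touched a domain was 541 bp in the knockout and 663 bp in library 0. The longest covered stretch within a domain had a median of 1188 bp in the knockout and 1865.5 bp in library 0, over the domains that held a peak of that list. A single stretch filled more than 50% of the width in 15 domains in the knockout and in 53 in library 0, and reached 4000 bp in 9 and 23 domains.

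Most bases under knockout peaks were also under library 0 peaks. They made up 85.5% of the knockout bases in the domains, and 64.4% of the library 0 bases were under knockout peaks. By length, 35.2% of the domains was covered by both lists, 5.98% by the knockout alone, 19.4% by library 0 alone and 39.4% by neither. Along the domain both lists peaked at the middle. With each domain divided into 20 equal bins, coverage in the bin just left of the centre was 55.3% in the knockout and 71.8% in library 0, and in the outermost bins it was 8.67% and 8.55% in the knockout and 14.7% and 13.1% in library 0. In the 229 domains built from merged library 0 peaks the Ezh2 contrast between zones was small: the inner and outer shares were 63.7 and 57.2% in the knockout and 84.7 and 85.2% in library 0. Such domains begin and end on a library 0 peak, so their even library 0 coverage is largely set by the choice and is not a finding. In the 500 domains the ratio of inner to outer coverage was 1.73 in the knockout and 1.67 in library 0. The ratio of knockout to library 0 coverage in the 500 domains was nearly the same in both zones: 0.763 in the inner 50% of the width and 0.738 in the outer 25% at each end.

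These domains hold a large part of all called Ezh2. They contained 29.7% of the knockout peaks and 42.5% of the knockout covered length, and 34.3% of the library 0 peaks and 47.2% of its covered length. Of the top 10% of each list by score, 426 of 620 knockout peaks (68.7%) and 377 of 542 library 0 peaks (69.6%) touched a domain. Of the lowest 10%, 78 knockout peaks and 100 library 0 peaks did.

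Among the 10 widest domains, the first was chr1:78182187-78205506 (23320 bp). It held 10 knockout peaks over 8561 bp and 8 library 0 peaks over 15737 bp, a ratio of 0.544. The longest stretch was 2582 bp in the knockout and 7661 bp in library 0, so called Ezh2 lay in shorter pieces in the knockout. The next, chr8:59800563-59821076 (20514 bp), held 13 knockout peaks over 10033 bp and 11 library 0 peaks over 12990 bp. In chr17:86006505-86026371 (19867 bp) knockout peaks covered 65.0% and library 0 peaks 88.2%, the highest library 0 share among the 10. In chr11:118902321-118922057 (19737 bp) these shares were 60.5% and 74.4%, and in chr1:186539899-186558740 (18842 bp) they were 38.9% and 75.9%. The last of these was split into 15 knockout peaks and 12 library 0 peaks.

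In a pair of the 10 widest domains, both on chromosome 11, the knockout covered more than library 0. In chr11:11919090-11936982 (17893 bp) knockout peaks covered 7122 bp and library 0 peaks 4045 bp, a ratio of 1.76. Its library 1 score of 382.37 was far below the 3100 of most wide domains. In chr11:84327169-84344787 (17619 bp) knockout peaks covered 12540 bp and library 0 peaks 11133 bp. This domain held the longest unbroken stretch of called Ezh2 in both lists, 8963 bp in the knockout and 10844 bp in library 0. The remaining 3 of the 10, on chromosomes 19, 4 and 5, had ratios of 0.826, 0.711 and 0.780.

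**Figure D2:**
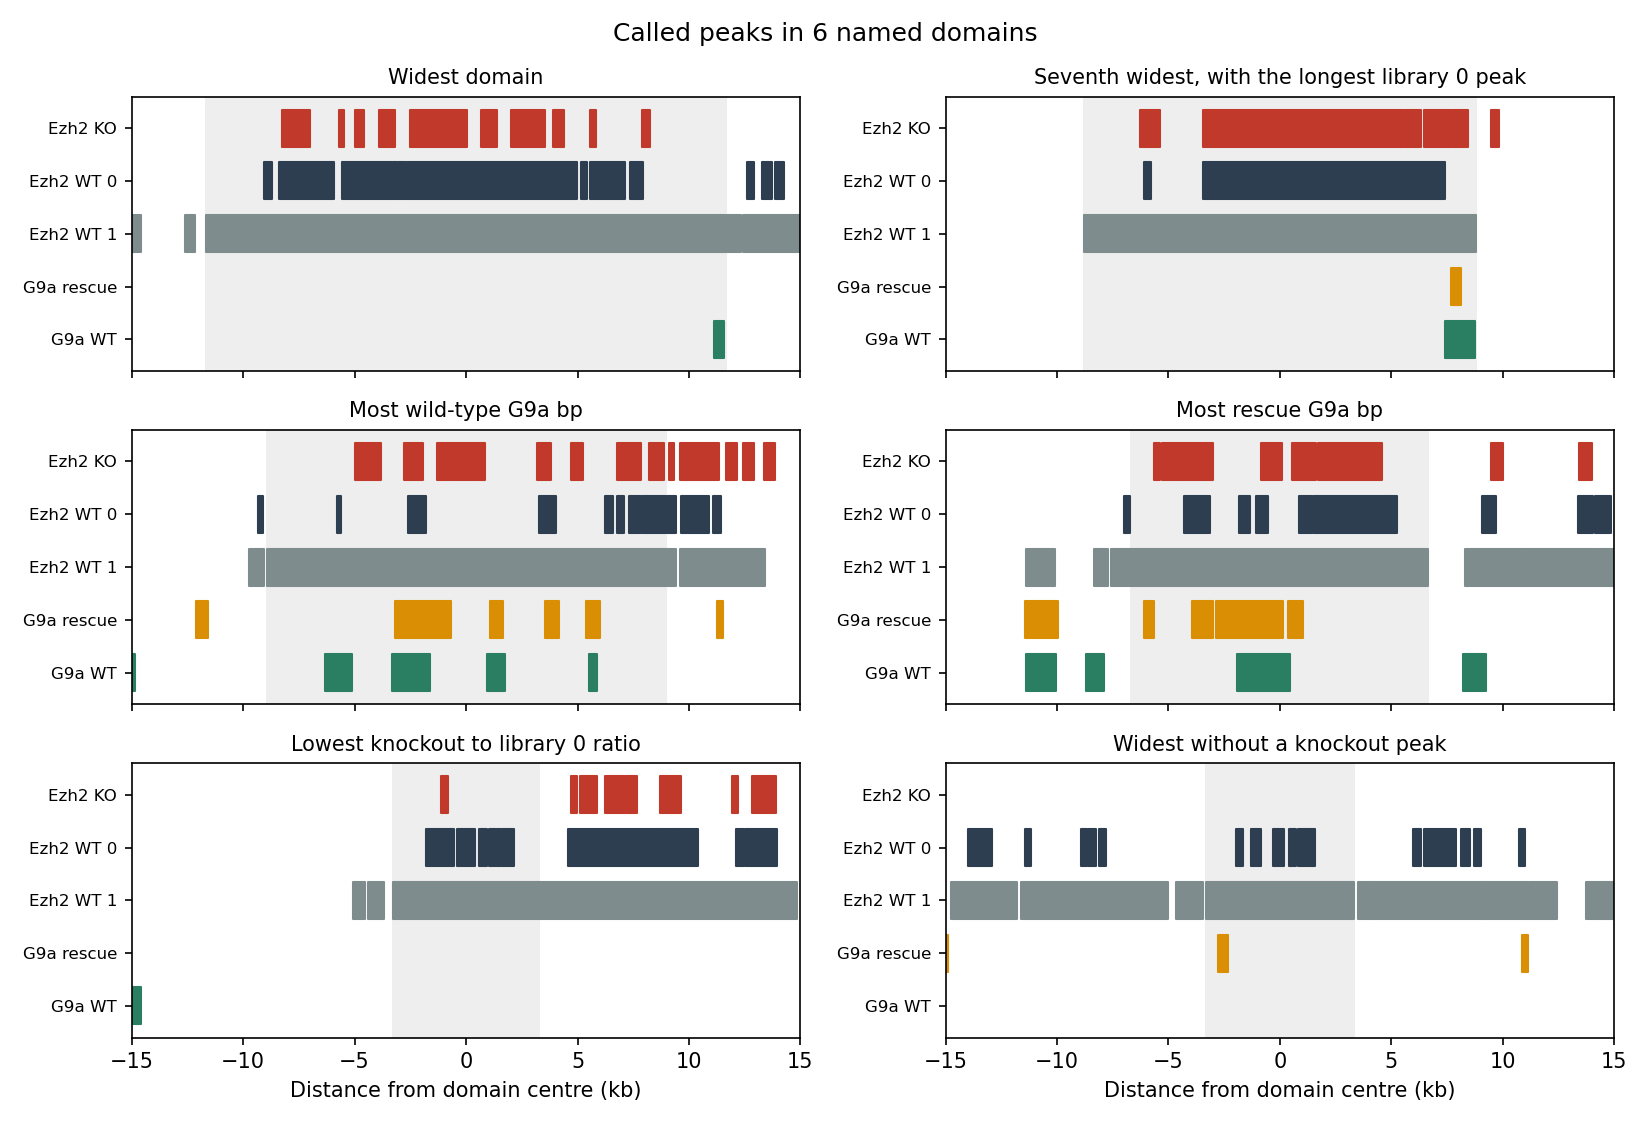
Called peaks of the 5 lists within 15 kb of the centre of 6 domains named in the text (horizontal axis, distance in kb; grey shading, the domain); each bar is a deposited peak. The widest domain has 10 short knockout peaks where library 0 has 8, the domain with the most wild-type G9a has 4 G9a peaks in each G9a list, the domain with the lowest ratio has 1 knockout peak, and the widest domain without a knockout peak has 5 library 0 peaks; library 1 peaks that adjoin a domain are also drawn.

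The 21 domains with no knockout peak were at the narrow end of the range and had less library 0 coverage than the others. Their median width was 4345 bp, against 6039 bp in the other 479, and none was wider than 6657 bp. Library 0 covered 30.3% of their length, against 55.3% in the other domains. The median of the highest library 0 score was 165.77 in those of the 21 with a library 0 peak and 664.68 in the other domains that had one. Not all of the 21 were low in library 0: the highest score among them was 821.53. A knockout peak lay within 1 kb of an end in 3 of the 21 and within 5 kb in 6. Rescue G9a peaks were present in 7 of the 21 and wild-type G9a peaks in 5, beside 25.6 and 20.8% of all 500 domains.

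Of the 5 widest of these 21, 3 formed a row on chromosome 2, in a stretch of 20734 bp (chr2:17949990-17970723). Library 0 had 13 peaks over 6132 bp in them and the knockout had none. The middle domain, chr2:17958256-17964912, held 5 library 0 peaks over 2411 bp, with a highest score of 111.15. The right one, chr2:17965710-17970723, held 4 library 0 peaks over 2458 bp, with a highest score of 450.97. An adjoining pair on chromosome 12, chr12:74143825-74148235 and chr12:74148310-74154613, was also without knockout peaks, with 1563 and 991 bp under library 0 peaks. The fourth widest, chr13:113776179-113781940, had 2975 bp under library 0 peaks and 3043 bp under rescue G9a peaks. Of the 21, 5 lay on chromosome 2 and 4 on chromosome 1, the chromosomes of 54 and 45 of the 500 domains.

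In a few domains the knockout covered a small part of what library 0 did. The lowest ratios, among the 444 domains with both lists and at least 1000 bp of library 0 peaks, were 0.0882 in chr1:57024511-57031057, 0.0914 in chr4:88917709-88924431 and 0.112 in chr17:63228094-63232171. Each of these held a single knockout peak of 307 or 311 bp. Library 0 covered 3479, 3402 and 2766 bp of them. The next, chr3:17951000-17956441 and chr9:24573324-24584034, both had ratios of 0.115. At the other end, chr8:107791476-107795798 had 3024 bp under knockout peaks and 1695 bp under library 0 peaks (1.78), followed by chr11:11919090-11936982. In chr3:128925319-128929358 the ratio was 1.69 and in chr14:33409841-33413987 it was 1.51. In chr11:68196522-68203748 knockout peaks covered 4580 bp and library 0 peaks 3056 bp.

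In 6 domains library 0 had no peak. The widest was chr11:69613434-69618709 (5276 bp), with 2 knockout peaks over 1322 bp and a library 1 score of 719.03. In chr1:36612956-36617469 neither list had a peak, and neither G9a list did. The next 3, chr17:93599390-93603599, chr19:25739868-25744030 and chr8:73385444-73389449, held 589, 468 and 620 bp of knockout peaks.

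The ratio of knockout to library 0 differed between chromosomes. It was below 1 on all 19 autosomes, with a median of 0.755 and a range of 0.527 on chromosome 1 to 0.913 on chromosome 11. On chromosome 1, knockout peaks covered 27.6% of the length of 45 domains and library 0 peaks 52.5%, and the knockout covered less in 39 of the 41 domains with both lists. On chromosome 11 they covered 48.7% and 53.3% of 48 domains, and the knockout covered less in 25 of 45. On chromosome 17 the ratio was 0.907 over 12 domains. The narrower library 1 peaks went the same way, at 0.375 on chromosome 1 (1071 peaks) and 0.999 on chromosome 11 (1020 peaks). Without chromosome 1 the ratio over the remaining domains was 0.777. The differences between chromosomes were not tested.

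**Figure D3:**
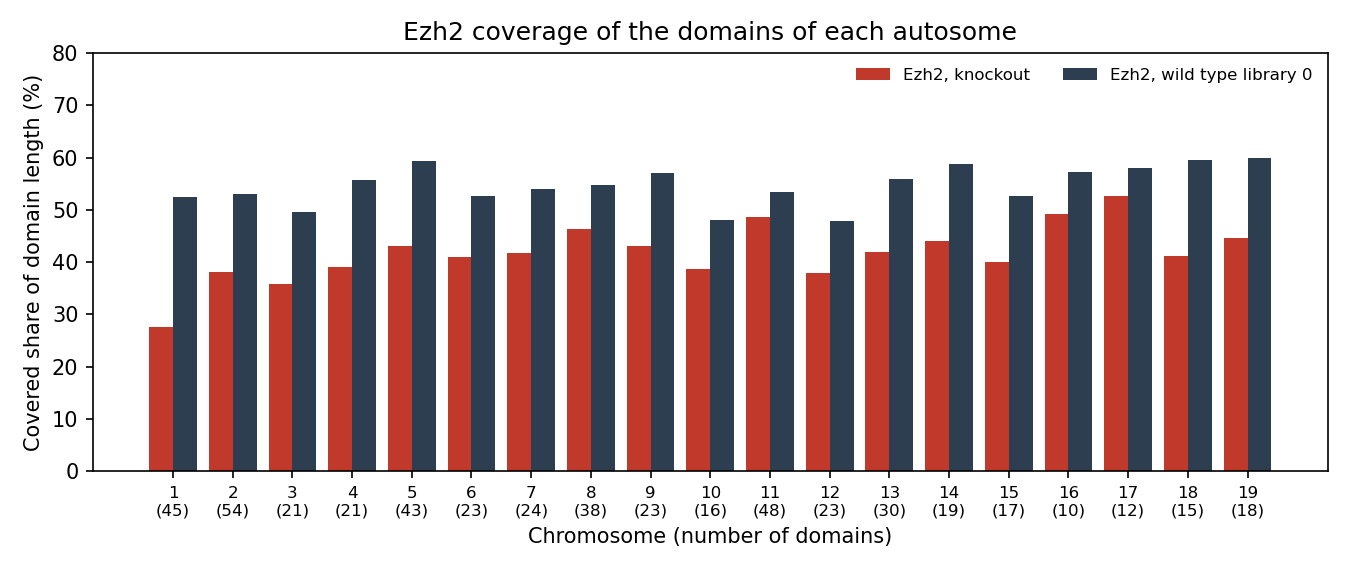
Share of the summed domain length (vertical axis, %) under knockout Ezh2 peaks (left bar of each pair) and wild-type library 0 Ezh2 peaks (right bar) on each autosome, with the number of domains in brackets. The knockout bar is lower on all 19, from 27.6% against 52.5% on chromosome 1 to 48.7% against 53.3% on chromosome 11.

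Wider domains were covered more fully by Ezh2 in both lists. Over width classes starting at 4000, 5000, 7000 and 10000 bp (173, 157, 91 and 79 domains), knockout coverage was 30.9, 39.5, 45.2 and 47.3%. Library 0 coverage was 44.0, 52.9, 59.1 and 60.7% in the same classes. The summed ratio was 0.702, 0.747, 0.765 and 0.779, and all 170 domains of 7000 bp or wider held peaks of both lists. In library 1 peaks from 3000 bp up to the threshold, knockout coverage was 27.7% and library 0 coverage 40.3%, which continues the same order toward narrower peaks. In the 26 broad peaks of the Hox windows the covered shares were 46.6% in the knockout and 53.8% in library 0, a ratio of 0.866.

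G9a was called in a minority of the broad domains, and covered little of them. A rescue G9a peak lay in 128 of the 500 (25.6%; exact binomial 95% interval 21.8 to 29.7), and a wild-type G9a peak in 104 (20.8%; 17.3 to 24.6). Flanks as wide as the domain held rescue G9a in 26.4% (left) and 29% (right), and wild-type G9a in 22.8% and 22.2%. The domains thus did not hold G9a more often than flanks of equal width. Among all 11497 library 1 peaks outside the Hox windows these shares were 16.5% and 14.4%. Of those peaks, 7252 were narrower than 1000 bp and had less room for a G9a peak. In library 1 peaks from 3000 bp up to the threshold the shares were 24.7% and 19.1%. Covered length ran the other way with width. Rescue peaks covered 3.40% of the domains and wild-type peaks 2.69%, whereas in library 1 peaks narrower than 1000 bp they covered 9.21 and 9.37%. Few of those 7252 narrow peaks were called in the other wild-type Ezh2 library: 3.87% held a library 0 peak, and their median library 1 score was 40.42. Over the width classes of the domains, rescue coverage was 4.49, 3.29, 2.74 and 3.17%, and wild-type coverage 4.99, 2.64, 1.48 and 1.90%. The lists hold no G9a library from knockout cells without rescue, so the background of these calls is unknown.

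**Figure D4:**
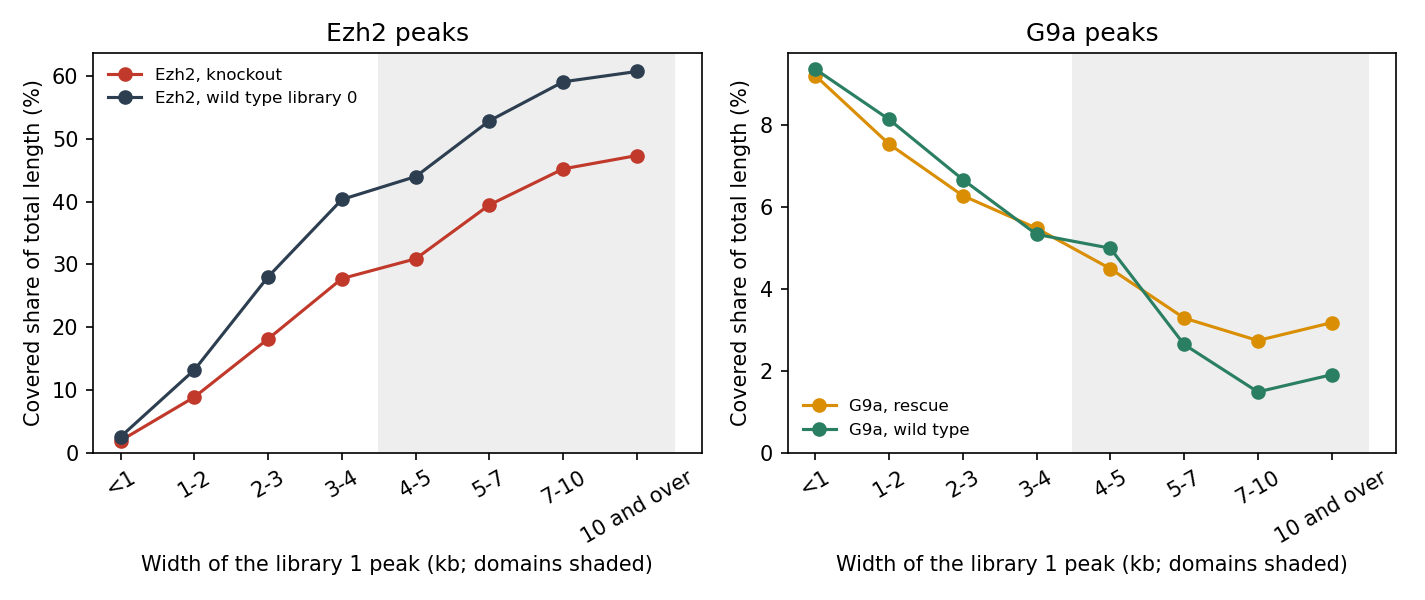
Share of the summed length of library 1 peaks (vertical axes, %) under knockout and wild-type library 0 Ezh2 peaks (left panel) and under rescue and wild-type G9a peaks (right panel), by width class of the library 1 peak (horizontal axis, kb; classes at or above 4 kb, the domains, are shaded). Ezh2 coverage is higher in wider peaks, reaching 47.3% in the knockout and 60.7% in library 0, whereas G9a coverage is lower, at 3.17% in the rescue and 1.90% in the wild type for the widest class.

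G9a coverage of the domains was close to that of the sequence beside them. In flanks of the same width on each side, rescue peaks covered 3.00% and wild-type peaks 3.09%, which gives domain to flank ratios of 1.13 and 0.869. Knockout and library 0 Ezh2, by contrast, had ratios of 5.64 and 5.47. The flanks are not free of Ezh2: library 1 peaks, neighbouring domains among them, were not removed. They covered 29.5% of the flank length and lay in 63.8% of left and 65.2% of right flanks. The G9a ratios depended on the choice of domains: they were 0.947 in the rescue and 0.641 in the wild type in the 300 domains with a library 1 score of 3100 or more, and 0.391 and 0.222 in 229 domains of at least 4000 bp built from library 0 peaks, merged within 1 kb, in place of library 1 peaks. The last choice changes both the library and the merging. With the threshold at 3000 bp they were 1.35 and 1.09, so whether either G9a list is denser in the domains than beside them depends on these choices.

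Within the domains, G9a coverage was higher toward the ends than in the middle. Rescue G9a covered 2.36% of the inner 50% of the width and 4.44% of the outer zones, and wild-type G9a 2.08% and 3.30%. In the 20-bin profile, rescue coverage was lowest just left of the centre (1.12%) and 5.32% and 4.66% in the outermost bins. Wild-type coverage was lowest at 1.63% and was 4.44% and 3.53% in the outermost bins. In the 300 domains with the highest library 1 scores the inner and outer shares were 1.47 and 3.92% for the rescue and 0.903 and 2.74% for the wild type. With G9a peaks of score 100 or more alone, they were 0.816 and 1.15% for the rescue and 0.647 and 0.643% for the wild type, so in the wild type the zones were nearly equal among the higher-scoring peaks. Without the 9 domains that make up the 5 with most G9a of each list, they were 1.67 and 3.92% and 1.43 and 2.75%.

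**Figure D5:**
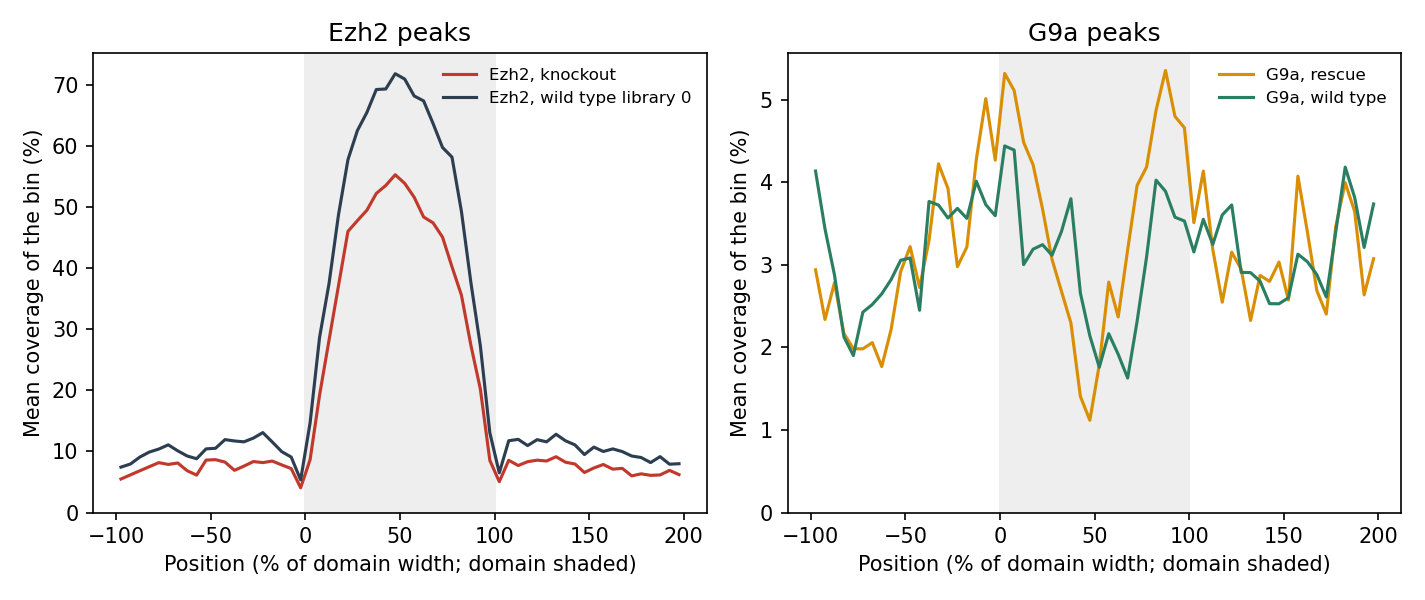
Mean coverage (vertical axes, %) of 20 equal bins across the 500 domains (shaded, 0 to 100% of the width) and of flanks as wide as the domain on each side, for Ezh2 (left panel, knockout and wild-type library 0) and G9a (right panel, rescue and wild type). Ezh2 reaches 55.3% in the knockout and 71.8% in library 0 at the middle, where rescue G9a has its lowest bin at 1.12%; the vertical scales of the panels differ.

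G9a and Ezh2 calls overlapped only in part within a domain. Of the rescue G9a bases in domains, 26.0% were under knockout Ezh2 peaks, which cover 40.4% of the length of the 128 domains concerned, and 31.1% were under library 0 peaks, which cover 53.1%. Of the wild-type G9a bases, 24.5% were under knockout Ezh2 peaks and 26.3% under library 0 peaks, which cover 37.9% and 50.3% of the 104 domains concerned. All these lists are calls over fragments of sonicated chromatin, so peak edges are not exact. The rescue and wild-type G9a lists shared 58 domains, which is 45.3% of the domains with rescue G9a and 55.8% of those with wild-type G9a. Another 70 domains had rescue G9a alone, 46 wild-type G9a alone and 326 neither. By bases the overlap was 37.2 kb, or 31.4% of the rescue G9a length in the domains and 39.7% of the wild-type length.

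The median score of G9a peaks in the domains was near that of the other peaks. It was 28.975 in the domains and 26.86 elsewhere in the rescue, and 30.395 in the domains and 31.71 elsewhere in the wild type. Of the 190 rescue peaks in the domains, 37 were in the top 10% of their list by score and 21 in the lowest 10%. Of the 128 wild-type peaks, 18 were in the top 10% and 10 in the lowest 10%. The highest G9a score in a domain had a median of 31.63 in the rescue and 30.66 in the wild type, and reached 100 in 25 and 18 domains. A few domains stood out. The most rescue G9a was in chr11:98179559-98192891 (13333 bp), with 5 rescue peaks over 5049 bp (highest score 490.49) and 1 wild-type peak of 2377 bp (214.16). Ezh2 was also strong there, at 7451 bp in the knockout and 6520 bp in library 0. The most wild-type G9a was in chr11:11919090-11936982, the wide domain in which knockout Ezh2 covered more than library 0. It held 4 rescue peaks over 4397 bp (highest score 275.34) and 4 wild-type peaks over 4137 bp (114.33), some of them overlapping Ezh2 peaks.

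In other, narrower domains G9a covered much of the width. In chr2:79293863-79298167 (4305 bp), 3 rescue peaks covered 71.6% and 3 wild-type peaks 57.2%, while the knockout Ezh2 list had no peak and library 0 a single peak of 305 bp. In chr1:74936570-74940807 (4238 bp), rescue G9a covered 31.6% and wild-type G9a 83.7%, with 1188 bp of knockout Ezh2 and 1199 bp of library 0 Ezh2. In chr11:77743820-77748814 rescue G9a covered 2072 bp and wild-type G9a 3723 bp. In chr1:167635788-167640295 the rescue had no peak and wild-type G9a covered 58.8%. In chr13:113776179-113781940, which had no knockout Ezh2, it was the rescue that covered 52.8% and the wild type that had no peak. In chr7:86643751-86657300 rescue G9a covered 3190 bp and wild-type G9a 1040 bp, and in chr15:76345985-76352432 they covered 971 and 2518 bp.

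The presence of knockout Ezh2 and its ratio to library 0 were similar in domains with and without G9a. Coverage itself was lower in both Ezh2 lists where wild-type G9a was called. It was 37.9% with and 42.1% without it in the knockout, and 50.3 and 55.9% in library 0. For rescue G9a these shares were 40.4 and 41.4% in the knockout, and 53.1 and 55.2% in library 0. In the 104 domains with wild-type G9a, knockout Ezh2 was called in 99 (95.2%), against 380 of the 396 without it. The summed ratio of knockout to library 0 covered length was 0.753 with wild-type G9a and 0.754 without it. For rescue G9a it was 0.761 in the 128 domains with it and 0.751 in the 372 without it. Domains with wild-type G9a were slightly wider, with a median of 6152 bp against 5792 bp.

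The G9a lists also differed by chromosome. On chromosomes 1 and 8 together, rescue G9a lay in 10 of 83 domains and wild-type G9a in 25 (30.1%), whereas on the other 17 autosomes rescue G9a lay in 118 of 417 (28.3%) and wild-type G9a in 79 (18.9%). The narrower library 1 peaks had the same order. On chromosomes 1 and 8, 7.27% of 1871 such peaks held rescue G9a and 21.4% wild-type G9a, and on the other 17 autosomes 17.9 and 12.7% of 9126 did, so the narrower peaks show this difference between the G9a lists too. Rescue G9a was called in 1 of the 21 domains of chromosome 4 and 5 of the 23 of chromosome 12, where wild-type G9a was called in 0 of each. Narrower peaks of chromosome 4 held rescue G9a in 16.1% and wild-type G9a in 10.3%, and those of chromosome 12 in 17.9 and 13.8%. On chromosome 2 the rescue had peaks in 21 and the wild type in 10 of 54 domains, and in 18.2 and 13.4% of the narrower peaks. These chromosomal differences were not tested.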

How the data were processed

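The authors deposited 1 peak list per library, with positions and a score for each peak, and the score is the only measured value in the deposited files. The submitters' processing notes name Bowtie 0.12.7, MACS 1.4 and mm9. Both wild-type inputs, combined, served as control for Ezh2 and G9a according to the design text. An input of the knockout cells is also labelled, and which control the knockout and rescue lists had is not stated, so every comparison with them may also differ in control. The call thresholds are not given in the sources used here. Input libraries were not analysed here. Positions are printed 1-based.

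From the lists, peaks of the other libraries overlapping a domain by at least 1 bp were counted and their length inside it summed, with Python 3.11.15, numpy 2.4.6, pandas 2.3.3 and scipy 1.17.1; figures used matplotlib 3.10.9. The overlap procedure was checked base by base on simulated intervals. Shares of domains have exact (Clopper-Pearson) 95% intervals. No test between conditions was run. The members, lists and alternatives were chosen with earlier results of these data known. Domains named in the text are the 10 widest, the 5 widest without a knockout or without a library 0 peak, the 5 with most G9a bp in each list, the 5 with the highest and lowest ratios, those next to the width threshold, and, chosen after their values were seen, neighbours in the rows of domains. Alternatives varied width, merging, score, list length, overlap, flanks, chromosomes and the wild-type library.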

Additional observations from a re-analysis of the deposited data

How the results depend on the processing

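A share of domains was taken as moved when it left its exact 95% interval, and a covered share or ratio when it changed by over 1.1 times; a ratio was reversed when it crossed 1. Leaving out chromosomes 8 and 11, 6 and 13, or 1, and keeping domains of score 3100 or more, were chosen after seeing the data. Domains with a knockout and with a library 0 peak were 89.0 and 96.3% at 3000 bp, 98.5 and 99.7% at 5000 bp, 87.0 and 92.9% after merging peaks within 1 kb, 79.4 and 94.4% with scores of at least 100, and 100 and 100% in domains of score 3100 or more. Knockout and library 0 coverage was 28.8 and 39.6% after merging, 31.1 and 46.8% with scores of at least 100, and 47.5 and 61.8% in domains of score 3100 or more. Rescue and wild-type G9a lay in 37.2 and 31.1% of domains after merging and in 5 and 3.60% with scores of at least 100. The domain to flank ratios for rescue and wild-type G9a were 1.35 and 1.09 at 3000 bp, 1.02 and 0.701 at 5000 bp, 1.502 and 1.12 after merging, 1.82 and 1.02 with scores of at least 100, and 0.947 and 0.641 in domains of score 3100 or more. Leaving out either wild-type Ezh2 library (domains built from library 0 peaks merged within 1 kb, or ratios taken to library 1) gave 95.8 to 99.6% of domains with a knockout peak, 41.2 to 60.4% knockout coverage, a median knockout ratio of 0.406 to 0.716, 16.6 to 25.6% with rescue G9a, 9.61 to 20.8% with wild-type G9a, and domain to flank ratios of 0.391 to 1.13 and 0.222 to 0.869. Leaving out library 0 kept the 500 domains and changed only the ratio. The ends at 95.8, 41.2, 25.6 and 20.8%, 1.13 and 0.869 are therefore the reported values repeated. Leaving out library 1 gave the other ends. It moved all these knockout and G9a shares and the wild-type flank ratio (0.222), and reversed the rescue flank ratio (0.391). The median ratio of 0.716 was not moved. In that alternative library 0 both chose the domains and was the denominator, so a ratio below 1 was favoured by the choice. The value of 0.406 is a ratio to library 1, which covers each domain fully by choice, so it could not exceed 1. The presence and coverage of library 0 have no alternative of this kind, since library 0 was left out or chose the domains. In the 13 alternatives that kept library 0 as denominator, the median ratio stayed within 1.1 times of the reported value; in 1 of them library 0 chose the domains. Equal list lengths, the stricter overlap, 10 kb flanks and leaving out chromosomes moved no result. A common lowest Ezh2 score moved none either, but it could hardly do so. The lowest scores of knockout Ezh2 and library 0 were already 43.03 and 43.02, and no domain had a library 1 score below 191.22. The causes of these shifts were not tested. No paired analysis was possible because the groups compared share fewer than 2 replicate numbers. Peak lists without read counts cannot show whether an uncalled domain had no Ezh2 or too few reads.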
